A study of Mus musculus with 12 samples.

Results

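The IL-6 family is described here by 10 genes, out of 30142 genes measured in 12 mouse pancreas tumours. They were chosen by name: the cytokine genes Il6, Il11, Lif and Osm, the receptor genes Il6ra, Il6st, Osmr and Lifr, the transcription factor gene Stat3 and the feedback inhibitor gene Socs3. Each of the 10 had exactly 1 probe set annotated with its symbol alone, so no choice between probe sets was needed. Each tumour was measured on 1 one-colour array, and each of 4 groups held 3 tumours, each from a separate mouse, so p-values measure the spread between mice. The FAP depleted tumours came from PKT mice of the FAP line in which FAP-positive cells had been depleted, and the FAP-TK control tumours from PKT mice of that line without depletion. The tumours labelled aSMA depleted came from PKT mice of the aSMA line, and the aSMA-TK control tumours from that line without depletion. PKT is a genetic mouse model of pancreatic cancer, shared by all 4 groups, and the labels do not spell out its alleles. TK is thymidine kinase, which turns ganciclovir into a toxic product inside the cells that carry it. The labels give ganciclovir at 50 ug per kg for all 12 mice, so whether the controls received the drug is not settled. The labels and files hold no age, sex or strain background, nor the promoters that drive TK, so which cells carried it is known from the line names only.

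Most cytokines of the IL-6 family signal through receptor complexes that contain gp130, the product of Il6st. IL-6 and IL-11 first bind their own alpha receptors. LIF signals through the LIF receptor with gp130, and mouse oncostatin M acts mainly through the OSM receptor with gp130. The complexes activate JAK kinases, which phosphorylate STAT3, and STAT3 in turn induces Socs3, whose product binds gp130 and limits the signal. In pancreatic tumours, inflammatory fibroblasts are a known source of IL-6 and LIF, macrophages and neutrophils are a known source of oncostatin M, and STAT3 activity in the epithelium is known to support tumour growth.

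The promoters of 3 members are shown because their levels in single tumours or in 1 line carry the findings below. They are Il6 and Socs3, both highest in the same tumour, and Lif, the member of largest difference in the FAP line. Each run is the 250 bases before the annotated start, 5′ to 3′ on the strand of the gene, taken from RefSeq on build GRCm38.p6. Il6 lies on the plus strand at chr5:30012864-30013113, Lif on the plus strand at chr11:4257318-4257567 and Socs3 on the minus strand at chr11:117969367-117969616. Capitals mark matches on either strand to an NF-kB motif (GGG, any 2 bases, then TTTCC), an AP-1 motif (TGANTCA) or a STAT motif (TTCNNNGAA). No 2 matches overlap.
Il6: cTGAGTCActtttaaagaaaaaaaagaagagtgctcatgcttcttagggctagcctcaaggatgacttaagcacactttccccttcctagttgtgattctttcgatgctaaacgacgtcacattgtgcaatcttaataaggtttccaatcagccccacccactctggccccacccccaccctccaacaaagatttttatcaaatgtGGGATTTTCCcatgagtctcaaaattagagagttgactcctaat
Lif: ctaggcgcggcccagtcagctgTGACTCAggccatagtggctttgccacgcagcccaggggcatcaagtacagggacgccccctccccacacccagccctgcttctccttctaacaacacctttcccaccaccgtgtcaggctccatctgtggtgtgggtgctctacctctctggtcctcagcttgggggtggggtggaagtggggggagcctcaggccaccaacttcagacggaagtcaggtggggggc
Socs3: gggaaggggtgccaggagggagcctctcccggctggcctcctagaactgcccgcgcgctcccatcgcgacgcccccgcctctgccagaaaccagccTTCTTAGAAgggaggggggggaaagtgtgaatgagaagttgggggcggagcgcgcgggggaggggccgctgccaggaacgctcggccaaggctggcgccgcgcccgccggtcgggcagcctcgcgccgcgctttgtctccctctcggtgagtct
The Il6 promoter held 1 NF-kB match, which begins 44 bases before the start, and 1 AP-1 match. The Lif promoter held 1 AP-1 match, and the Socs3 promoter 1 STAT match that begins 154 bases before the start. Of 32851 promoter windows of this length, 1.41% held the NF-kB motif, 6.75% the AP-1 motif and 7.02% the STAT motif. These matches describe the letters of the window and show no binding. The 9 members found in the promoter table had 11 windows, and the others held no match apart from 1 AP-1 match in 1 of the windows of Il11.

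The tissue label was met by its defining markers: of 8 ductal epithelial genes, all 8 were above background on most arrays, where background is the 95th percentile of the 5222 negative-control probe sets of an array. The arrays of the FAP line had higher negative-control medians, 5.46 to 6.49 in deposited log2 units, against 4.46 to 4.88 in the aSMA line. The 23 antigenomic background probe sets have sequences that are not in the genome. Their medians were alike, at 2.81 to 3.05 in the FAP line and 2.70 to 2.98 in the aSMA line. The 3 arrays on which positive and negative controls were least separated were FAP depleted replicate 2 and FAP-TK control replicates 1 and 3. Fap, the gene that marks the cells targeted in the FAP line, was at 5.52, 5.34 and 6.21 in the FAP depleted tumours and at 6.56, 7.31 and 6.53 in the FAP-TK controls, but it was above background on 0 of 12 arrays. Acta2, which encodes alpha smooth muscle actin, was at 10.13, 13.86 and 15.28 in the tumours labelled aSMA depleted and at 12.26, 10.85 and 11.12 in the aSMA-TK controls. Acta2 thus goes against the label in 2 of those 3 tumours, and every direction in the aSMA line below rests on the label alone. In whole tumour RNA, fewer cells of a type and less RNA per cell cannot be told apart.

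Detection differed between members. Il6st was above the negative-control threshold on 11 of 12 arrays, Stat3 and Osmr on 9 each and Lifr on 6. Stat3 and Osmr each passed on 2 FAP depleted, 1 FAP-TK control, 3 labelled aSMA depleted and 3 aSMA-TK control arrays. Lifr passed on 1, 0, 3 and 2, in that order. The threshold is set per array, and was 9.29 to 11.29 in deposited log2 units in the FAP line. It was 8.21 to 8.79 in the aSMA line, so these counts cannot be compared between lines. Il6ra never passed that threshold but exceeded the highest of the 23 antigenomic background probe sets, whose sequences are not in the genome, on all 12 arrays. Lif exceeded that level on 11 arrays, Socs3 on 3 and Il6 on 1. Il11 and Osm exceeded it on none, so their values lie near background. Lif, Socs3, Il11 and Osm passed the negative-control threshold on 0 of 12 arrays, and Il6 on 1. Values below are quantile-normalized log2 intensities, and differences are in the same log2 units, each depleted minus control unless stated otherwise.

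In neither line did a member pass the test across all genes. Limma called 0 of the 10 members in the FAP comparison and 0 in the aSMA comparison, at an adjusted p under 0.05, and 0 of all 30142 genes (0%) in each. The smallest adjusted p over all genes was 0.785 in the FAP line and 0.474 in the aSMA line. With 1 array left out, limma called 4 genes in the FAP line (without FAP depleted replicate 2) and 16 in the aSMA line (without replicate 3 of the tumours labelled aSMA depleted), and 0 members. At an unadjusted p under 0.05 there was 1 member in the FAP comparison (3.71% of all genes) and 2 in the aSMA comparison (4.81% of all genes). In the FAP line 7 of 10 members had a difference above 0 (59.9% of all genes), with a median of 0.13 against 0.04 over all genes. In the aSMA line 9 of 10 did (53.2% of all genes), with a median of 0.55 against 0.01. Depleted and control tumours did not overlap for 0 members in the FAP line (8.1% of all genes, 5.6% with the depleted tumours above and 2.5% below) and for 3 members in the aSMA line (12.5% of all genes), where the tumours labelled aSMA depleted lay above the controls each time (7.43% of all genes, with 5.08% below). The 3 were the receptor genes Il6ra, Il6st and Osmr.

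**Figure D1:**
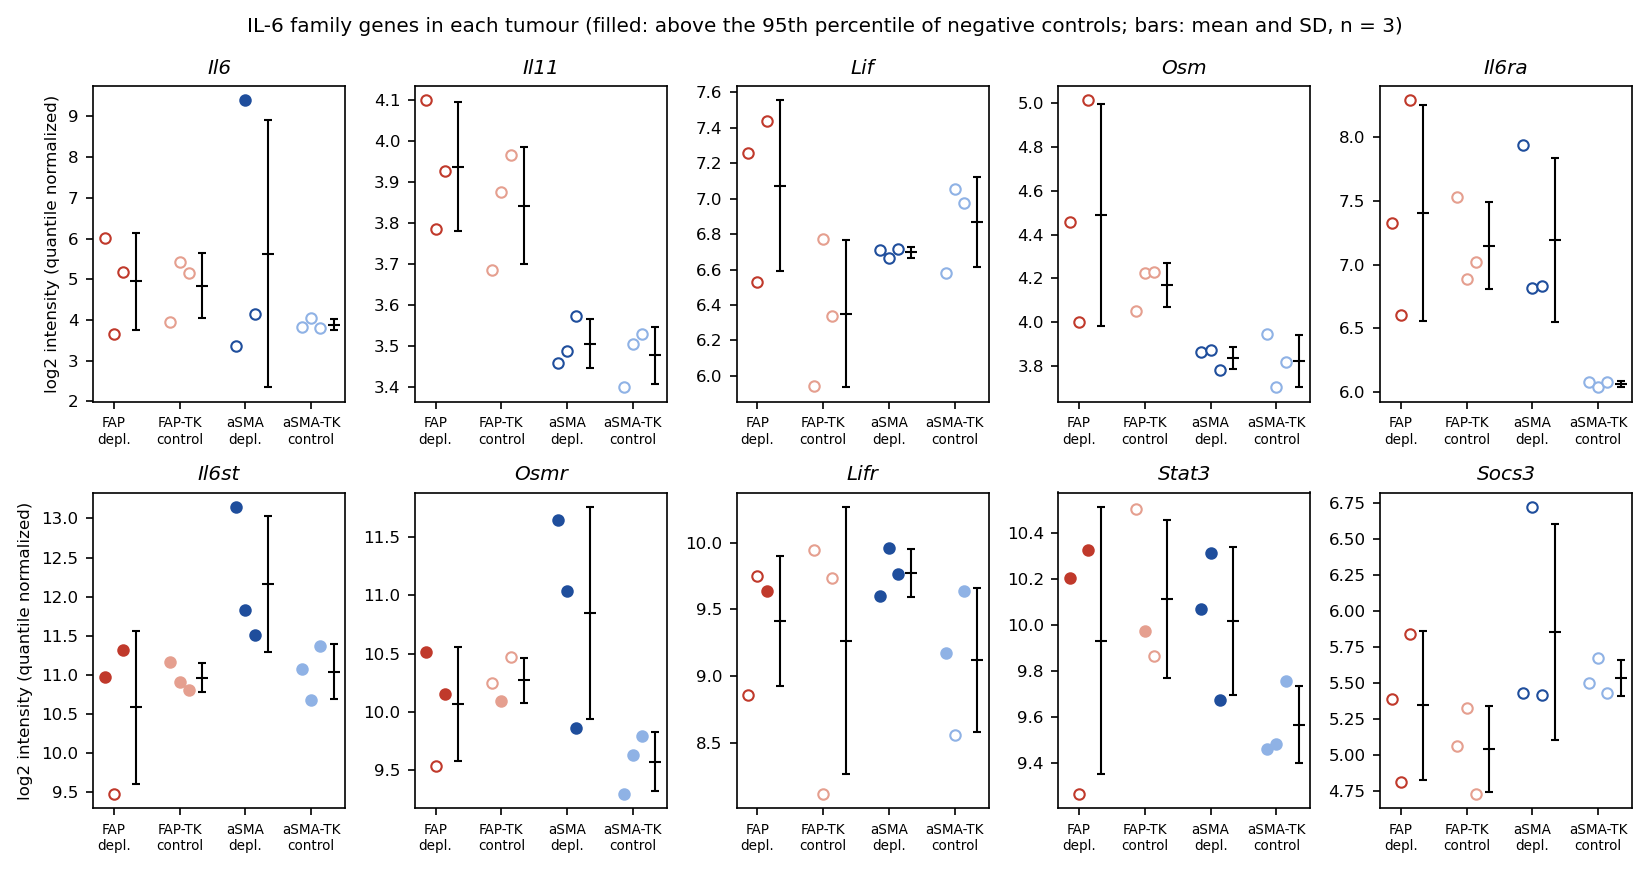
Quantile-normalized log2 intensity (y axis) of each of the 10 genes in every tumour, with the 4 groups along the x axis. Each circle is 1 tumour, filled where the deposited value was above the 95th percentile of the negative controls, and the bars give the mean and SD of 3 tumours. Il6 stands at 9.40 in 1 tumour labelled aSMA depleted, and Il6ra, Il6st and Osmr are above all aSMA-TK controls in each tumour labelled aSMA depleted.

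Il6, which encodes the founding cytokine of the family, was at 3.35, 9.40 and 4.13 in the tumours labelled aSMA depleted, against 3.82, 4.04 and 3.79 in the aSMA-TK controls. Replicate 2 alone was high, and it was the only one of 12 arrays on which Il6 was above background. The other two tumours lay on either side of the controls. The difference of 1.74 ± 1.33 (SE) had a limma adjusted p of 0.944 and an exact permutation p of 0.7, two-sided, where 3 against 3 cannot go below 0.1. Without replicate 2 it was -0.14. For the FAP line, Il6 was at 6.01, 3.65 and 5.18 in the FAP depleted tumours and at 3.94, 5.43 and 5.16 in the FAP-TK controls. These groups overlapped throughout, with a difference of 0.10 ± 1.33 and a 95% confidence interval from -2.88 to 3.08. The within-group SD of Il6, 1.80, was larger than that of 99.5% of all genes, for which the median was 0.24.

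Lif encodes leukaemia inhibitory factor, a cytokine known to act on pancreatic tumour cells. It was at 7.26, 6.53 and 7.44 in the FAP depleted tumours, against 5.94, 6.77 and 6.34 in the FAP-TK controls. Depleted replicates 1 and 3 were above every control, and replicate 2 was below 1 of them. The difference of 0.72 ± 0.26 (SE) was the largest of the 10 in the FAP line, with an unadjusted 95% confidence interval from 0.14 to 1.31, an adjusted p of 1.00 and an exact permutation p of 0.2. It was above 0 with each array left out in turn, from 0.52 to 1.00. Lif in the aSMA line was at 6.71, 6.66 and 6.72 in the tumours labelled aSMA depleted and at 6.58, 7.06 and 6.97 in the aSMA-TK controls, a difference of -0.17 ± 0.26. The values of the tumours labelled aSMA depleted all fell inside the range of the controls.

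Osm encodes oncostatin M, mostly a product of myeloid cells. It was at 4.46, 4.00 and 5.01 in the FAP depleted tumours and at 4.05, 4.23 and 4.23 in the FAP-TK controls, with 2 of the 3 depleted tumours above all controls. The difference was 0.32 ± 0.21 (adjusted p = 1.00, exact permutation p = 0.4), and 0.059 without FAP depleted replicate 3. All 6 values of the aSMA line lay between 3.71 and 3.94 and the difference was 0.02 ± 0.21. Il11, whose product is known for its role in fibrosis, stayed between 3.40 and 4.10 on all 12 arrays, with differences of 0.10 ± 0.11 in the FAP line and 0.03 ± 0.11 in the aSMA line. Values of both genes exceeded the median of the antigenomic probe sets on all 12 arrays and the highest of them on none.

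Il6ra, the alpha receptor of IL-6, was at 7.94, 6.81 and 6.83 in the tumours labelled aSMA depleted, against 6.07, 6.03 and 6.08 in the aSMA-TK controls. The controls were tightly grouped (6.06 ± 0.02, SD, n = 3), and each tumour labelled aSMA depleted (7.19 ± 0.64) lay above them. The difference was 1.13 ± 0.42 (SE), with an adjusted p of 0.944 and an exact permutation p of 0.1, the smallest 3 against 3 can give. It ranged from 0.76 to 1.32 with 1 array left out. Il6ra in the FAP line was at 7.33, 6.60 and 8.29 in the FAP depleted tumours and at 7.53, 6.89 and 7.02 in the FAP-TK controls. Those groups overlapped, with a difference of 0.26 ± 0.42, which was 0.66 without FAP depleted replicate 2 and -0.18 without replicate 3.

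Il6st encodes gp130, the signalling receptor shared by the family. Its values were 13.15, 11.83 and 11.52 in the tumours labelled aSMA depleted, against 11.08, 10.68 and 11.38 in the aSMA-TK controls. The lowest tumour labelled aSMA depleted was just above the highest control. The difference was 1.12 ± 0.51 (adjusted p = 0.944, exact permutation p = 0.1), and it was 0.63 without replicate 1 of the tumours labelled aSMA depleted. Il6st in the FAP line was at 10.97, 9.48 and 11.32 in the FAP depleted tumours and at 11.17, 10.92 and 10.81 in the FAP-TK controls. Depleted replicate 2 alone was low, on the array with the least control separation. The difference of -0.37 ± 0.51 was 0.18 without that array.

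Osmr, the receptor subunit that binds oncostatin M, was at 11.65, 11.04 and 9.86 in the tumours labelled aSMA depleted, against 9.30, 9.63 and 9.79 in the aSMA-TK controls. Replicates 1 and 2 were well above the controls and replicate 3 just above the highest. The difference of 1.27 ± 0.41 (SE) ranked 240th by p among the 30142 genes, with an adjusted p of 0.944 and an exact permutation p of 0.1. With 1 array left out it ranged from 0.87, without replicate 1, to 1.77, without replicate 3, where its adjusted p was 0.204. Osmr in the FAP line was at 10.51, 9.54 and 10.15 in the FAP depleted tumours and at 10.25, 10.09 and 10.47 in the FAP-TK controls, a difference of -0.20 ± 0.41 between overlapping groups.

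Lifr, the receptor subunit for LIF, was at 9.60, 9.96 and 9.76 in the tumours labelled aSMA depleted and at 9.17, 8.56 and 9.63 in the aSMA-TK controls. The groups overlapped by a narrow margin, since the lowest tumour labelled aSMA depleted was below the highest control. The difference was 0.65 ± 0.47 (exact permutation p = 0.2), and 0.37 without aSMA-TK control replicate 2. Lifr in the FAP line was at 8.86, 9.75 and 9.64 in the FAP depleted tumours and at 9.95, 8.11 and 9.74 in the FAP-TK controls, with a difference of 0.15 ± 0.47 that was -0.43 without FAP-TK control replicate 2. Il6ra, Il6st and Osmr differed in which tumour labelled aSMA depleted was highest from Lifr: replicate 1 was highest for all of the first 3 genes and replicate 2 for Lifr.

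Stat3, the transcription factor that carries the signal to the nucleus, was at 10.07, 10.31 and 9.67 in the tumours labelled aSMA depleted and at 9.46, 9.48 and 9.76 in the aSMA-TK controls. Replicate 3 lay below 1 control and the other two above all of them, for a difference of 0.45 ± 0.29 (adjusted p = 0.944, exact permutation p = 0.2). In the FAP line it was at 10.20, 9.26 and 10.33 in the FAP depleted tumours and at 10.50, 9.97 and 9.87 in the FAP-TK controls. That difference was -0.18 ± 0.29, and 0.15 without FAP depleted replicate 2, the lowest tumour. These are transcript levels, and the activating phosphorylation of STAT3 is not measured by an array.

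Socs3, the feedback inhibitor and a direct STAT3 target, was at 5.43, 6.72 and 5.41 in the tumours labelled aSMA depleted and at 5.50, 5.67 and 5.43 in the aSMA-TK controls. Replicate 2, the tumour of high Il6, was the highest of all 12, and the other two lay just below the lowest control. The difference of 0.32 ± 0.36 (exact permutation p = 1) was -0.11 without replicate 2. Socs3 in the FAP line was at 5.38, 4.81 and 5.84 in the FAP depleted tumours and at 5.06, 5.32 and 4.73 in the FAP-TK controls, a difference of 0.31 ± 0.36 with an exact permutation p of 0.4, and of 0.060 without FAP depleted replicate 3. The genes of the immediate early list, which respond within minutes to growth factors, stress and tissue handling, had their highest list mean, 9.93, in FAP depleted replicate 3 and, within the aSMA line, 7.99 in replicate 2 of the tumours labelled aSMA depleted. Those were also the tumours of highest Socs3 in each line. Beyond the correlation given further below, the part of the immediate early genes in the Socs3 values was not tested.

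**Figure D2:**
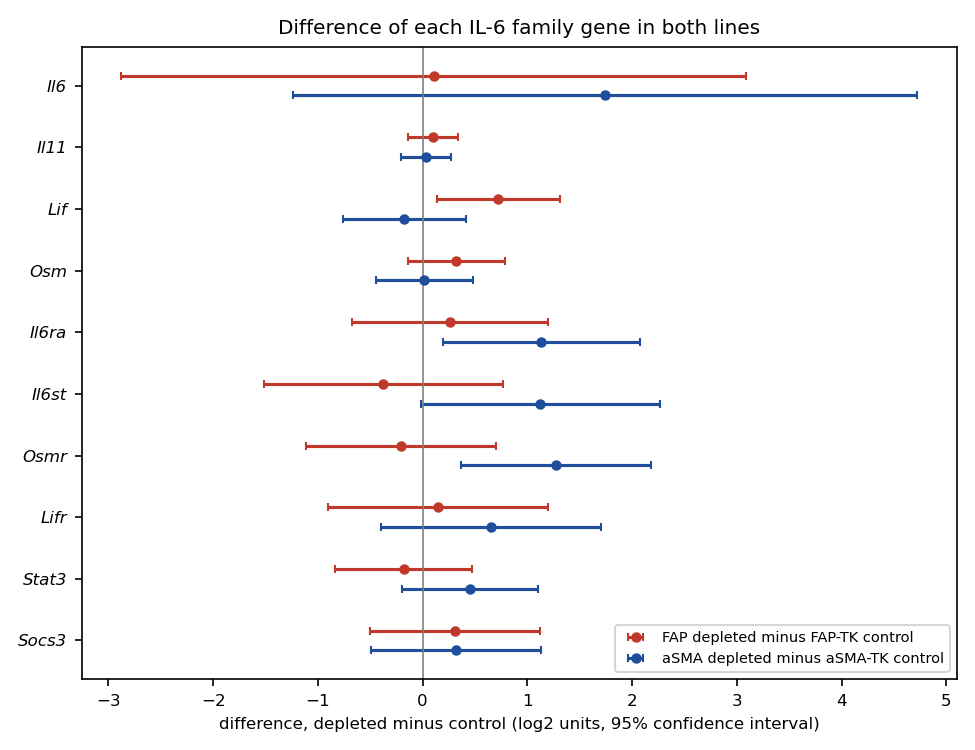
Difference of each gene, depleted minus control, in log2 units (x axis) with its unadjusted 95% confidence interval from limma, for the FAP line (upper of each pair) and the aSMA line (lower). Intervals for Il6 span more than any other, and those of Lif in the FAP line and of Il6ra and Osmr in the aSMA line do not reach 0, although no adjusted p passed.

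Whether the difference between depleted and control tumours was unlike in the 2 lines was tested as aSMA effect minus FAP effect. The aSMA effect rests on the label alone, and the level of the negative controls cannot be told apart from the line. The arrays of low control separation were all in the FAP line. Limma called 0 of the 10 members and 0 of all genes (0%), with 7 members above 0 (46.4% of all genes) and 2 members at an unadjusted p under 0.05 (5.96% of all genes). These were Osmr, whose effects differed by 1.48 ± 0.57, and Lif, whose effects differed by -0.90 ± 0.37, both at an adjusted p of 0.829. For Il6st the effects differed by 1.497 ± 0.72 and for Il6ra by 0.87 ± 0.59. Without FAP depleted replicate 2, the array of least control separation, these were 0.94 and 0.47.

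The 2 control groups differed in the level of the negative controls, which cannot be told apart from the line. Their antigenomic medians were alike, at 2.81 to 3.02 in the FAP-TK controls and 2.84 to 2.98 in the aSMA-TK controls. For aSMA-TK control minus FAP-TK control limma called 0 of the 10 members, against 7.8% of all genes (4.78% higher and 3.02% lower). At an unadjusted p under 0.05 there were 2 members, Il11 and Il6ra (28.2% of all genes), and 3 of 10 members were above 0 (58.2% of all genes). The 2 groups did not overlap for 6 members (35% of all genes, 21.3% above and 13.8% below). Il11, Osm, Il6ra, Osmr and Stat3 were lower in each aSMA-TK control and Socs3 was higher, as quantile normalized. The mean of Il6ra over the aSMA-TK controls was 6.06 ± 0.02, against 7.15 ± 0.34 over the FAP-TK controls (SD, n = 3 each), a difference of -1.09 ± 0.42 (SE) with an adjusted p of 0.128. Il11 had the smallest adjusted p, 0.0655, at -0.37 ± 0.11, from values at background. On the deposited scale the median of all genes shifted by -0.39 in this comparison, against 0.07 after normalization. On that scale 0 of 10 members were above 0 and 5 were called. Socs3 was at -0.23 there, above the median of all genes, and at 0.22 with median centring, against 0.50 after quantile normalization.

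Other genes of the pathway were followed as lists. The share of all genes with a difference above 0 was 59.9% in the FAP line and 53.2% in the aSMA line. The other IL-6 family ligands (7 of 9 measured) and receptors (3 of 4 measured) had none above background on most arrays. For the FAP line, 4 of 7 ligands and 2 of 3 receptors had differences above 0, with medians of 0.03 and 0.04. Without FAP depleted replicate 2 the ligand count was 2 of 7, and without replicate 3 the receptor count was 1 of 3. Ctf1, which encodes cardiotrophin-1, was at 0.26 ± 0.11, Clcf1 at 0.24 ± 0.15 and Il12a at -0.13 ± 0.11, while the receptor genes Cntfr, Il31ra and Il27ra were at 0.07 ± 0.12, 0.04 ± 0.08 and -0.02 ± 0.09. For the aSMA line, 5 of 7 ligands and 3 of 3 receptors were above 0, with medians of 0.06 and 0.16, and the ligand count was 3 of 7 without aSMA-TK control replicate 1. Ctf1 was at -0.27 ± 0.11 there, Ebi3, a subunit of IL-27, at 0.34 ± 0.15 and Il12a at 0.14 ± 0.11, with Cntfr at 0.16 ± 0.12, Il27ra at 0.16 ± 0.09 and Il31ra at 0.03 ± 0.08. No gene of either list passed the test.

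JAK, STAT and feedback genes (12 of 13 measured, 3 above background on most arrays) had 6 of 12 differences above 0 in the FAP line, with a median of -0.01. The phosphatase gene Ptpn11 was at 0.33 ± 0.27, the kinase gene Tyk2 at 0.14 ± 0.13 and Pias3, an inhibitor of STAT3, at -0.27 ± 0.28. The count was 11 of 12 without FAP depleted replicate 2 and 2 of 12 without replicate 3. In the aSMA line 9 of 12 were above 0, with a median of 0.11. Socs2, a feedback inhibitor known for its action on growth hormone signalling, was at 0.36 ± 0.14. Its values in each tumour labelled aSMA depleted were above the controls (7.43% of all genes). The phosphatase gene Ptpn2 was at 0.41 ± 0.29 and Stat5a at 0.15 ± 0.14. The count was 6 of 12 without replicate 1 of the tumours labelled aSMA depleted, and no gene of the list passed in either line.

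STAT3 target genes (18 of 20 measured, 7 above background on most arrays) had 16 of 18 differences above 0 in the aSMA line (53.2% of all genes). Their median was 0.53 against 0.01 over all genes, and limma called 0 of the 18. The fibrinogen gene Fgg was at 0.73 ± 0.24, the anti-apoptotic gene Bcl2l1 at 0.73 ± 0.33 and Lcn2, which encodes the secreted siderophore-binding protein lipocalin-2, at 1.15 ± 0.65. The count was 13 of 18, with a median of 0.31, without replicate 2, the tumour of high Il6. Without each of the other arrays it was 16 or 17. In the FAP line 12 of 18 were above 0 (59.9% of all genes), with a median of 0.23, and 0 were called. Fgg was at 0.94 ± 0.24 and Bcl2l1 at 1.07 ± 0.33, both above every control in each FAP depleted tumour (5.6% of all genes). The proto-oncogene Myc was at 1.16 ± 0.56. The count above 0 was 8 of 18 without FAP depleted replicate 1 or replicate 3, and 15 of 18 without replicate 2 or FAP-TK control replicate 2. Fgg was not above background on any array.

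Immediate early genes (9 of 9 measured, 1 above background on most arrays) had 9 of 9 differences above 0 in the FAP line, with a median of 0.68, and 4 of 9 with a median of -0.01 without FAP depleted replicate 3. Ier3 was at 1.54 ± 0.81, Atf3 at 0.68 ± 0.46 and Fos at 1.93 ± 1.32. In the aSMA line 6 of 9 were above 0, with a median of 0.10, and Dusp1, a phosphatase gene, was at 2.66 ± 1.44, Ier3 at 0.89 ± 0.81 and Egr1 at 0.56 ± 0.96. Without replicate 2 of the tumours labelled aSMA depleted the count was 4 of 9, and without replicate 1 it was 8 of 9 with a median of 0.43. Limma called 0 genes of the list in either line.

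**Figure D3:**
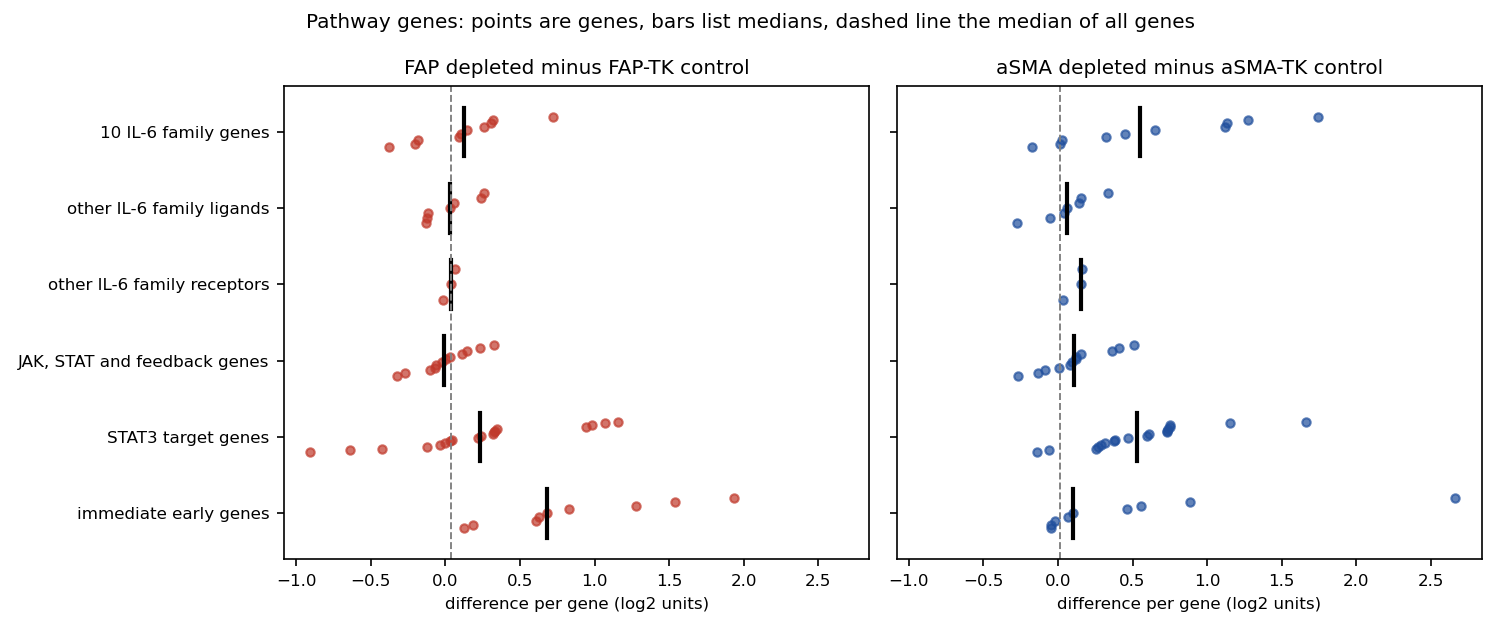
Differences of single genes in log2 units (x axis) for the 10 members and 5 pathway lists, FAP line at left and aSMA line at right. Points are genes, black bars list medians and the dashed line the median of all genes, and the STAT3 targets in the aSMA line have a median of 0.53 against 0.01 for all genes.

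Marker genes of the cell types that make or receive these cytokines are given beside these results, and limma called 0 of them in either depletion comparison. In the aSMA line 8 of 8 pan-fibroblast genes were above 0. Their mean was 9.76 to 11.10 in the tumours labelled aSMA depleted and 8.94 to 9.78 in the aSMA-TK controls, and the count was 3 of 8 without replicate 3. Of 8 macrophage and monocyte genes 7 were above 0, with means of 10.58 to 11.55 in the tumours labelled aSMA depleted and 9.53 to 10.68 in the aSMA-TK controls. Within the aSMA line the macrophage and monocyte mean was highest in replicate 1, where Il6ra, Il6st and Osmr were highest too. The T cell mean (5.07) and the islet mean (8.72) were also highest in that tumour, and the acinar mean (6.52) was lowest. Of the islet genes, 0 were above background on most arrays. For 8 inflammatory fibroblast genes, 8 were above 0, and the mean was highest at 7.27 in replicate 2, the tumour of high Il6, without which the count was 5 of 8. Only 1 of these 8 genes, Ly6c1, was above background on most arrays. All 6 smooth muscle and myofibroblast genes were above 0 too, of which 1 was above background on most arrays. Their mean was 6.49, 9.06 and 9.17 in the tumours labelled aSMA depleted and 7.03 to 7.62 in the aSMA-TK controls. Replicate 1 of the tumours labelled aSMA depleted thus lay below every control. Of 6 neutrophil genes 2 were above 0, with a median of -0.14 and means of 6.88 to 8.99 in the tumours labelled aSMA depleted and 7.26 to 9.18 in the aSMA-TK controls. That count was 6 of 6 without aSMA-TK control replicate 1 and 5 of 6 without replicate 3 of the tumours labelled aSMA depleted. Acinar genes were above 0 in 3 of 6, in 6 of 6 without replicate 1 of those tumours and in 0 of 6 without replicate 3. In the FAP line 0 of 8 pan-fibroblast and 1 of 8 macrophage and monocyte genes were above 0, while 8 of 8 ductal epithelial genes were, with means of 14.88 to 16.81 in the FAP depleted tumours and 14.49 to 15.63 in the FAP-TK controls. Without FAP depleted replicate 2 the counts were 4 of 8 for pan-fibroblast and 6 of 8 for macrophage and monocyte genes, the second of which was 5 of 8 without FAP-TK control replicate 2. Of the neutrophil genes 1 of 6 was above 0 there, with a median of -0.91 and means of 6.20 to 7.25 in the FAP depleted tumours and 6.25 to 8.86 in the FAP-TK controls, and the count was 3 of 6 without FAP-TK control replicate 2 and 2 of 6 without FAP depleted replicate 2. All 6 acinar genes were above 0, with a median of 1.41 and means of 8.86 to 10.99 in the FAP depleted tumours and 7.55 to 9.85 in the FAP-TK controls. The T cell genes, Cd3d, Cd3e, Cd3g, Cd4 and Cd8a, were above background on 0 arrays. Of 5 endothelial genes, 1 was above background on most arrays. In the aSMA line 4 of these 5 were above 0, with a median of 0.50, and in the FAP line 3, with a median of 0.16. Ductal epithelial genes in the aSMA line were above 0 in 4 of 8, with a median of -0.03. Beyond the relations given next, the part of these cell types in the values of the members was not tested.

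Of 12 relations examined within a line of 6 tumours, none passed after adjustment over the 12. Lif and the ductal mean in the FAP line had r = 0.88 (exact permutation p = 0.0278, adjusted p = 0.163) and rho = 0.83 (exact permutation p = 0.0583, adjusted p = 0.7). Lif was highest in the 2 FAP depleted tumours of highest ductal mean, and without these, the farthest from the median, r was 0.41 over the other 4. The same relation in the aSMA line had r = 0.02 (exact permutation p = 0.979) and rho = -0.03 (exact permutation p = 1), with r = 0.84 without the 2 farthest. Il6 and Socs3 had r = 0.98 in the aSMA line (exact permutation p = 0.0458, adjusted p = 0.163) but rho = 0.43 (exact permutation p = 0.419, adjusted p = 0.719), and r was 0.18 without the 2 tumours farthest in Il6, so the relation rests on those tumours. The pair had, in the FAP line, r = 0.51 (exact permutation p = 0.301) and rho = 0.66 (exact permutation p = 0.175), with r = 0.13 without the 2 farthest. Socs3 and the immediate early mean had r = 0.78 in the FAP line (exact permutation p = 0.0542) and 0.74 in the aSMA line (exact permutation p = 0.142), with rho of 0.49 (exact permutation p = 0.356) and 0.20 (exact permutation p = 0.714), and r of 0.46 and 0.50 without the 2 farthest. Il6 and the pan-fibroblast mean in the FAP line had r = 0.82 (exact permutation p = 0.0333, adjusted p = 0.163) and rho = 0.60 (exact permutation p = 0.242). That r was -0.52 without FAP depleted replicate 2 and FAP-TK control replicate 1, both arrays of low separation. The other 5 relations had exact permutation p of 0.0972 to 0.910 by either measure.

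**Figure D4:**
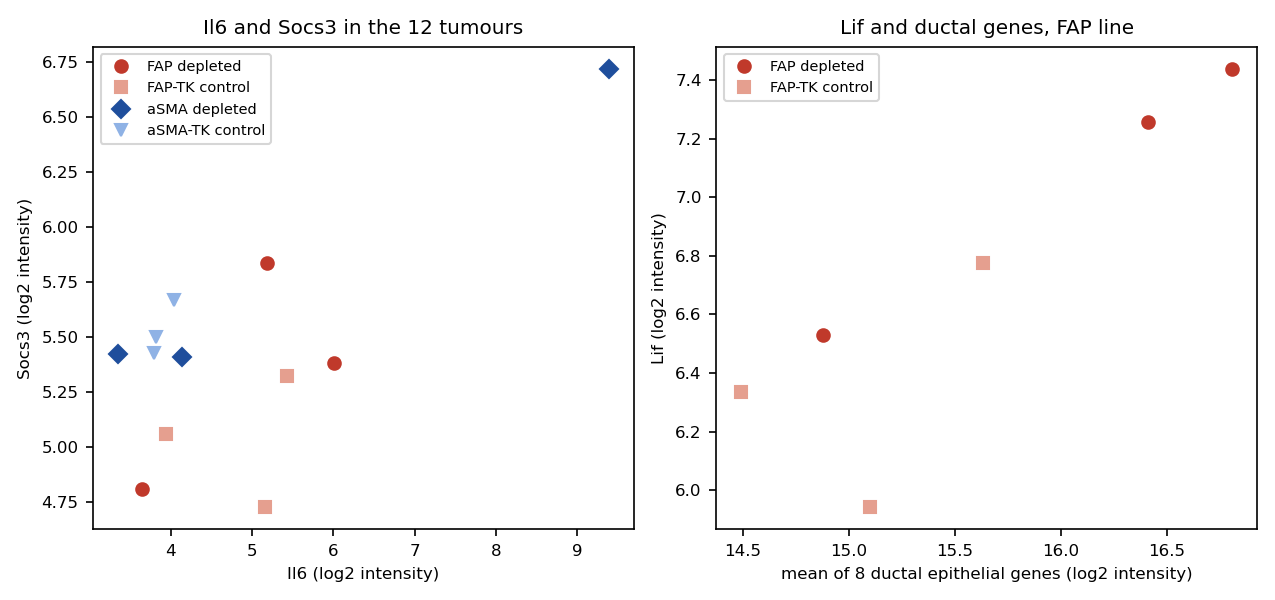
Left, Il6 against Socs3 in all 12 tumours, both as log2 intensity, with 1 marker per tumour and colour by group. Right, Lif against the mean of 8 ductal epithelial genes in the 6 tumours of the FAP line. One tumour labelled aSMA depleted, at 9.40 for Il6 and 6.72 for Socs3, stands apart from the other 11, and the 2 FAP depleted tumours of highest ductal mean have the highest Lif.

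Among the members themselves, with the 4 group means taken out and over the 12 arrays, the closest pair was Il6ra and Il6st with r = 0.89, followed by Il6 and Socs3 with r = 0.84 and Il6st and Osmr with r = 0.75. Lif and Lifr ran most against each other, with r = -0.61. The SD of Il6 was 3.29 in the tumours labelled aSMA depleted and 0.14 to 1.20 in the other groups. Its r values, also those below, thus lean on replicate 2 of those tumours, at 9.40. All pairs share the same arrays, among them the 3 of low control separation, so the values are a description. By the same measure the genes of most like pattern, among 11454 genes of above-median level, were Rnd1, Gfpt2 and Ptgis for Il6 (r of 0.96, 0.94 and 0.94). They were Capn2, Pi4kb and Tbc1d1 for Lif (0.98, 0.97 and 0.96), Gnl2, Ptpn12 and Slfn10-ps for Osmr (0.96, 0.94 and 0.94) and Fbxo2, Ppp1r15b and Ints11 for Socs3 (0.96, 0.93 and 0.92).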

How the data were processed

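The authors deposited 1 table of 72688 probe sets on 12 arrays, read here as log2 intensities from their range of 1.64 to 19.93. Per the submitters' processing notes limma was used. The labels name a labelling kit for Illumina arrays, whereas the probe set identifiers are of the Affymetrix whole-transcript kind. No version, background correction or summarization is given in these sources. After removal of 6732 control probe sets, the remaining 65956 were quantile normalized, because the deposited medians differed between arrays. Probe sets with exactly 1 distinct symbol (30604 of 32750 listed, 2146 with several) were kept, symbols were updated through the gene identifier to RefSeq GRCm38.p6 (827 changed), and the brightest probe set by mean stood for each of 30142 genes. Of 125 list entries 113 were measured.

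Limma 3.58.1 in R 4.3.3 fitted 1 mean per group over all 12 arrays, with moderated two-sided tests (no trend, not robust) and Benjamini-Hochberg adjustment over all genes. The script was tested on simulated data. Single members were also compared by exact permutation tests over samples. Alternatives were the deposited scale, median centring, the mean over probe sets of a gene, a filter on dim genes, array weights, an unmoderated test, a fit to the 2 groups compared alone, a robust and trended prior, a looser threshold (adjusted p under 0.1), leaving out the 3 arrays of low separation, and leaving out each array. List counts without single arrays, the antigenomic background and the shift of all genes were added after seeing the data. The number of arrays, 3 per group and 1 per mouse, limits the precision of every value.

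The members, lists and tests were chosen with earlier results of these data known. All 10 members were named in every comparison, with the 3 genes of smallest p of each pathway list in both depletion comparisons. For 4 members the 3 genes of highest correlation among genes above the median level were named, clone names left out.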

Additional observations from a re-analysis of the deposited data

How the results depend on the processing

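No paired analysis was possible because the labels give no replicate numbers shared between groups. In both depletion comparisons and in the difference between their effects, limma called 0 members under every alternative run. Wherever they were kept, Il6ra, Il6st and Osmr stayed above 0 in the aSMA line and Lif in the FAP line. The filter on dim genes removed Il6ra and Lif. The smallest adjusted p of a member in a depletion comparison was 0.0950, for Lif in the FAP line with array weights. The lowest weights, 0.404 and 0.406, fell on FAP depleted replicate 2 and FAP-TK control replicate 2. Those arrays held the lowest depleted and the highest control value of Lif, the values by which the groups overlapped.

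For aSMA-TK control minus FAP-TK control, 2350 genes were called, against 12443 as deposited, 5769 with median centring, 212 with only the groups compared, 6658 with array weights, 5104 at an adjusted p under 0.1, 357 without the 3 arrays of low separation, 0 with dim genes removed, and 508 to 3130 with 1 array left out. Of the calls 61.3% were higher, against 3.41% as deposited. Members called there were 5 as deposited and 1 each with median centring, trended and robust variances, array weights and an adjusted p under 0.1. Leaving out the 3 arrays leaves FAP-TK control replicate 2 as the only control of its line, assumed to vary like the other groups, so those values rest on 1 control array. On that basis 13 genes were called in the FAP line. With 1 array left out the counts were 0 to 4 in the FAP line, 0 to 16 in the aSMA line and 0 to 1 for the difference between effects.

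Members above 0 after removal of dim genes, which leaves fewer members, were 4 in the aSMA line, 4 for the difference between effects, 1 in the FAP line and 1 between the control groups, where it was 0 as deposited. With 1 array left out they were 6 to 9, 5 to 8, 5 to 9 and 2 to 4, in that order.

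Signs turned as follows, and the cause was not tested. As deposited, Il11 and Osm in the aSMA line were -0.054 and -0.068, and Il6st, Lif and Socs3 between the control groups were -0.56, -0.41 and -0.23. With median centring Il6st there was -0.11. With array weights Il6st, Lifr and Stat3 in the FAP line were 0.047, -0.44 and 0.17, Osm in the aSMA line was -0.00150 and the effects of Socs3 differed by -0.058. Without the 3 arrays, against that 1 control, Il6st, Osmr and Stat3 in the FAP line were 0.23, 0.24 and 0.29, the effects of Lifr differed by -0.48, and Lifr between the control groups was 1.01. In that control array Lifr was at 8.11, the lowest of all 12.

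With 1 array left out, ranges that crossed 0 in the aSMA line were -0.14 to 2.88 for Il6, -0.011 to 0.054 for Il11, -0.043 to 0.077 for Osm and -0.11 to 0.54 for Socs3. In the FAP line they were -0.43 to 0.75 for Il6, -0.18 to 0.66 for Il6ra, -0.74 to 0.18 for Il6st, -0.43 to 0.060 for Osmr, -0.43 to 0.49 for Lifr and -0.38 to 0.15 for Stat3. For the difference between effects they were -0.25 to 2.78 for Il6, -0.14 to 0.014 for Il11 and -0.42 to 0.26 for Socs3, and between the control groups -0.090 to 0.26 for Il6st and -0.72 to 0.20 for Lifr. Low signal over background limits Il6, Il11, Osm and Socs3 most.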
